A study of Mus musculus with 8 samples.

Results

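The genes of cholesterol synthesis and lipogenesis were examined in whole kidneys of mice with and without an induced deletion of c-Maf (gene *Maf*), a basic leucine zipper transcription factor of the proximal tubule. The 34 genes were taken by name from the 55367 genes listed, as 5 genes of SREBP control, 19 of the sterol pathway, and 10 of fatty acid synthesis, by a rule that uses names and no measured value. The names were chosen with earlier results of these data known, so the list is not independent of the data. All 34 passed the filter on low counts, which left 20149 genes for the tests. The samples were 4 c-MafΔTAM and 4 c-Maf fl/fl (control) mice, C57BL/6J and 8 weeks old. The c-MafΔTAM mice carried floxed *Maf* and CAG-Cre-ERTM, a Cre recombinase driven by the ubiquitous CAG promoter and activated by tamoxifen (TAM). The control mice carried the same floxed alleles without Cre and, in the study's methods, were also given TAM. Loss of c-Maf in the kidney, loss in other organs, and the active Cre itself cannot be told apart in this design.

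Cells build cholesterol from acetyl-CoA through the mevalonate pathway, squalene, and lanosterol, and they build fatty acids from acetyl-CoA through malonyl-CoA. SREBP-2 (gene *Srebf2*) mainly drives the sterol genes and SREBP-1 (gene *Srebf1*) the fatty acid genes. Both are held in the endoplasmic reticulum with SCAP and the INSIG proteins while sterols are abundant, and both are released and cut when sterols fall, after which they enter the nucleus and bind sterol regulatory elements. ChREBP (gene *Mlxipl*) is a carbohydrate-responsive activator of lipogenic genes that binds elements made of E-boxes.

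Promoter sequences are shown for the members that passed the test with *Xist* as a covariate or within the mice with high *Xist*, where the RefSeq table of GRCm38.p6 holds them and the exons of the count file do not cover them. The table matched 28 of the 34 members, with 38 promoters of 250 bases before and 50 bases after a start site. Each line gives 150 bases upstream of the RefSeq start or of the first exon in the count file, whichever lies further upstream, 5′ to 3′, and capitals mark matches on either strand to the sterol regulatory element TCACNCCAC, the CCAAT box (CCAAT), the E-box CACGTG, the GC box (GGGCGG), and the core TGCTGAC of the Maf recognition element.
Hmgcs1 (chr13:119690201-119690350, plus strand): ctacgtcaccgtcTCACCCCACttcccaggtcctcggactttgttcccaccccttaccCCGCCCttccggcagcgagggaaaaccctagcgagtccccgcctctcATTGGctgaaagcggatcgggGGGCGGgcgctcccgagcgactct
Cyp51 (chr5:4104747-4104896, minus strand): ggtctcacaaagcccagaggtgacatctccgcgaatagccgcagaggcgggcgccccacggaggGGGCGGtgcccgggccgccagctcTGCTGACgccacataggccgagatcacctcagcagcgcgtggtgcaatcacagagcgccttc
Mlxipl (chr5:135089740-135089889, plus strand): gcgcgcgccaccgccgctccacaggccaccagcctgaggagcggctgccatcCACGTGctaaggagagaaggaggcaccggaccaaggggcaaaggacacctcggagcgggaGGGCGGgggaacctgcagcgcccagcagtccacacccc
Fasn (chr11:120824548-120824697, minus strand): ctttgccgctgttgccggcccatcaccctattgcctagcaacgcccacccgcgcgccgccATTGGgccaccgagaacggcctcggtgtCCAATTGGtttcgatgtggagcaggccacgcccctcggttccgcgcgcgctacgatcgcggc

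The *Hmgcs1* stretch held the sterol regulatory element match TCACCCCAC, with 1 CCAAT box and 2 GC boxes downstream of it. The *Cyp51* stretch held the only match to the Maf element core among the member promoters. Over the 38 member promoters, 65.8% held CCAAT and 68.4% held GGGCGG, compared with 37.4% and 35.7% of all 32851 promoters in the table. The E-box was in 18.4% of the member promoters and 7.15% of all. TCACNCCAC was in 5.26% of the member promoters (*Hmgcs1* and a second start of *Mlxipl*) and 1.24% of all, and TGCTGAC was in 2.63% and 4.67%. In the printed stretches matches overlapped in *Fasn*, where a CCAAT box on one strand runs into one on the other. These matches describe letters in the window and no binding was measured.

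Total counts ranged from 16649129 to 22990257 per mouse, and the 34 members together took 0.233% to 0.377% of them. *Maf* was at 9.06, 34.5, 29.6, and 10.1 CPM (CPM is counts scaled to a common library size with TMM factors) in c-MafΔTAM mice 1 to 4 and at 379.9, 342, 305, and 351 CPM in control mice 1 to 4, a log2 fold change of -4.05 ± 0.512 (SE; adjusted *P* = 0.0115, edgeR's quasi-likelihood test). The c-MafΔTAM values all lay below the control values. The summed markers of the proximal tubule, thick ascending limb, distal convoluted tubule, collecting duct, and podocyte were each at least 246 CPM in every mouse. The 8 proximal tubule markers summed to 19526 ± 3159.6 CPM (SD, n = 4) in c-MafΔTAM and 23513 ± 4309 CPM in control mice (exact permutation test, two-sided *P* = 0.2). Of the 8 markers, 7 had a negative log2 fold change over all 8 mice, with a median of -0.38. The median was -0.28 with log2 *Xist* as a covariate and -0.11 in the mice with high *Xist*. With log2 *Xist* as a covariate 1 rose (*Kap*) and 1 fell (*Slc34a1*), and in the 5 mice with high *Xist* 3 fell (*Slc34a1*, *Slc22a8*, and *Pck1*) and 0 rose. Their part in the members' values was not tested. *Slc34a1*, the proximal phosphate transporter, fell over all 8 mice (log2 fold change -1.23, adjusted *P* = 0.000217), as did the endothelial receptor gene *Kdr* (-0.37, adjusted *P* = 0.0450). Of the 6 endothelial markers 4 had a negative and 2 a positive log2 fold change, and they summed to 379 to 399 CPM in c-MafΔTAM and 401 to 468 CPM in control mice. The 7 macrophage markers (5 positive, 2 negative, 0 called) summed to 102 to 108 CPM compared with 90.7 to 99.3 CPM. No test was made on these 2 sums. In tissue of many cell types, fewer cells of one type and less RNA per cell cannot be told apart.

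One feature of the mice touches most results below. *Xist*, the RNA made from the inactive X chromosome, had counts of 2 in c-MafΔTAM mouse 1, 6 in control mouse 3, and 22 in control mouse 4. In the remaining 5 mice the count was between 17618 and 22387. The Y-linked genes *Ddx3y*, *Eif2s3y*, *Kdm5d*, and *Uty* had between 474 and 917 counts each in the 3 mice with low *Xist* and at most 7 in the 5 others. The labels do not state the sex of the mice. The c-MafΔTAM mice were thus 1 with low and 3 with high *Xist* and the control mice 2 and 2, and the comparison of the genotypes is given for all 8 mice, with log2 *Xist* as a covariate, and within the 5 mice with high *Xist* (3 c-MafΔTAM and 2 control). With a single c-MafΔTAM mouse at low *Xist*, no test was made within the low *Xist* mice.

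Before the genotypes were compared, the levels were set side by side per kilobase of exon in the control mice. *Scd1*, the stearoyl-CoA desaturase that makes oleate, had the highest mean level, at 89.6 CPM per kb, and the widest range in absolute terms, from 36.2 to 150.5 CPM per kb. *Hmgcs1*, which makes HMG-CoA, followed at 74.0 CPM per kb (55.0 to 96.1), and *Cyp51*, the lanosterol demethylase, at 56.5 CPM per kb (up to 78.5). The ranges of these 3 genes overlapped between mice. Within every control mouse *Hmgcs1* lay above *Cyp51*. *Scd1* lay above both in control mice 1 and 2 and below both in control mice 3 and 4, the control mice with low *Xist*. *Acly*, which makes cytosolic acetyl-CoA from citrate, was at 40.3 CPM per kb (38.2 to 43.8). The lowest levels were those of *Acaca*, the cytosolic acetyl-CoA carboxylase, at 0.977 CPM per kb and of *Fdps*, the farnesyl diphosphate synthase, at 0.280 CPM per kb. Both genes share sequence with other genes. Of the 36-base sequences in *Acaca* transcripts 32.5% also occurred in transcripts of other genes, mostly *Gm5182*, and 26.7% of the exonic bases of *Fdps* were shared with *Gm43738*, where reads were not counted for either gene.

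**Figure D1:**
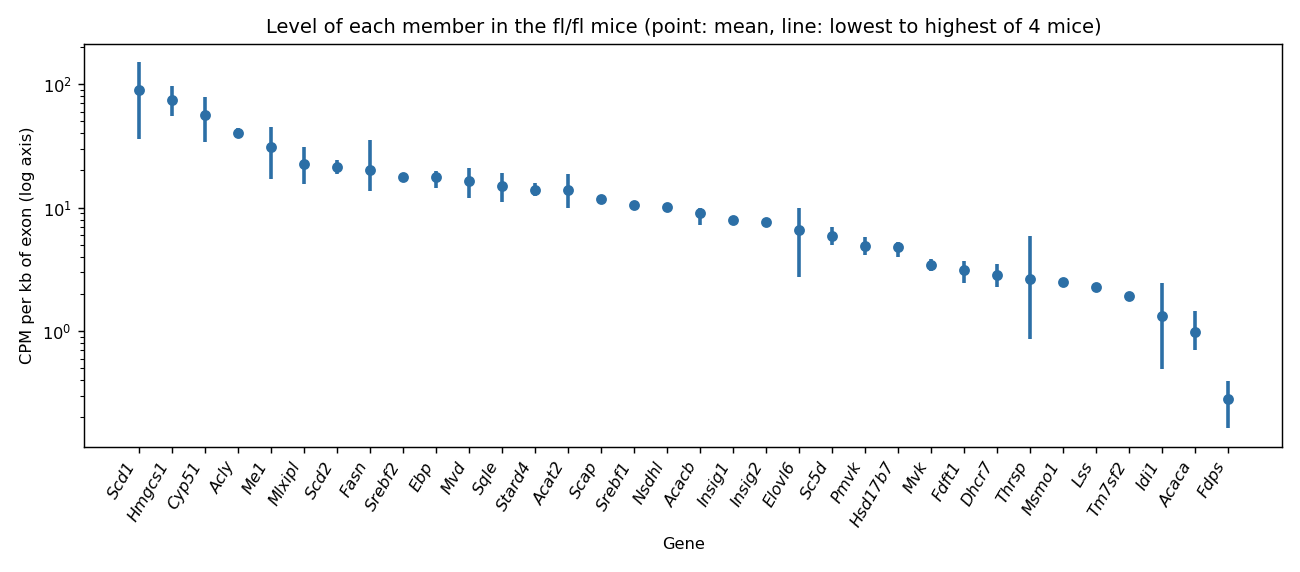
Mean level of each member in the 4 control mice, in CPM per kb of exon on a log axis, with lines from the lowest to the highest mouse. *Scd1*, *Hmgcs1*, and *Cyp51* lie highest with overlapping ranges, *Fdps* lies lowest, and *Scd1*, *Elovl6*, *Idi1*, and *Thrsp* have long lines.

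Over all 8 mice, 1 of the 34 members rose in c-MafΔTAM mice (*Msmo1*), compared with 0.586% of all genes tested, and 0 fell, compared with 1.58%. At an unadjusted *P* below 0.05, 4 were higher (*Msmo1*, *Scd2*, *Fdft1*, and *Sqle*), compared with 6.58% of all genes tested, and 2 were lower (*Acat2* and *Acly*), compared with 7.44%. DESeq2 called 2 members higher (*Msmo1* and *Scd2*) and 0 lower, compared with 284 higher and 562 lower of all 22052 genes it tested. Limma on quantile-normalized values called 0 members higher and 0 lower, compared with 141 and 267 of 20149 genes. The log2 fold change was positive for 24 members and negative for 10, with a median of 0.11 compared with 0.00 over all genes tested. The genotypes did not overlap for 4 members (*Insig2*, *Tm7sf2*, *Msmo1*, and *Scd2*), or 11.8%, close to the 9.79% of all genes tested.

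The fits that took *Xist* into account called more members. With log2 *Xist* as a covariate, 6 members (17.6%) were higher in c-MafΔTAM mice (*Hmgcs1*, *Sqle*, *Cyp51*, *Msmo1*, *Scd2*, and *Mlxipl*), compared with 2.59% of all genes tested, and 0 were lower, compared with 4.23%. At an unadjusted *P* below 0.05 that fit had 7 members higher and 3 lower, compared with 9.44% and 11.2% of all genes tested. Within the 5 mice with high *Xist*, 5 members (14.7%) were higher (*Hmgcs1*, *Sqle*, *Cyp51*, *Fasn*, and *Mlxipl*), compared with 1.53% of the 21027 genes tested there, and 0 were lower, compared with 2.22%. At an unadjusted *P* below 0.05, 11 were higher and 0 lower in those mice, compared with 7.29% and 7.82% of the genes tested there. *Hmgcs1*, *Sqle*, *Cyp51*, and *Mlxipl* were called in both of these fits and not in the fit of all 8 mice without a covariate. These fits share their mice, so they are not independent of each other.

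The extraction text of the labels names liver, and the summed hepatocyte markers moved with the 4 genes called in both of these fits. The 10 markers summed to 1435, 185, 182, and 175 CPM in c-MafΔTAM mice 1 to 4 and to 86.6, 93.8, 497, and 669 CPM in control mice 1 to 4. As for *Sqle*, *Cyp51*, *Hmgcs1*, and *Mlxipl*, c-MafΔTAM mouse 1 was highest, control mouse 1 was lowest, and c-MafΔTAM was above control within the mice of high and of low *Xist*. Most of the sum was *Cyp2e1*, a cytochrome P450 that the mouse kidney also makes, at 47.2 to 1398 CPM. Without *Cyp2e1*, which was set apart after its values were seen, the sum was 37.9, 51.5, 54.0, and 48.1 CPM in c-MafΔTAM and 39.4, 39.1, 64.1, and 63.7 CPM in control mice. *Alb*, the albumin gene that defines hepatocytes, was at only 0.661 to 8.85 CPM, and its level was lower in c-MafΔTAM with the covariate (log2 fold change -2.25, adjusted *P* = 4.65e-05) and in the high *Xist* mice (-2.35, adjusted *P* = 0.000529). Of the 8 markers that passed the filter in all mice, 0 rose and 1 fell with the covariate (*Alb*), and of the 9 that passed it in the high *Xist* mice 3 rose (*Cyp2e1*, *Serpina1a*, and *Apoh*) and 1 fell (*Alb*). The share of counts on mitochondrial genes had nearly the same arrangement, at 32.3%, 22.1%, 21.6%, and 18.7% in c-MafΔTAM mice 1 to 4 and 17.1%, 18.7%, 18.7%, and 25.5% in control mice 1 to 4, with c-MafΔTAM mouse 4 and control mouse 2 about equal. The TMM factors of c-MafΔTAM mouse 1 (0.857) and control mouse 4 (0.859) were the lowest, compared with 0.970 to 1.11 in the others. Leaving mitochondrial and ribosomal RNA genes out of the fit of all 8 mice moved none of the log2 fold changes of the 4 genes by 0.01. That fit had no covariate and called none of the 4 genes, so it does not bear on their calls in the other fits. The parts of hepatocyte RNA and of RNA quality in the members' values were not tested.

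**Figure D2:**
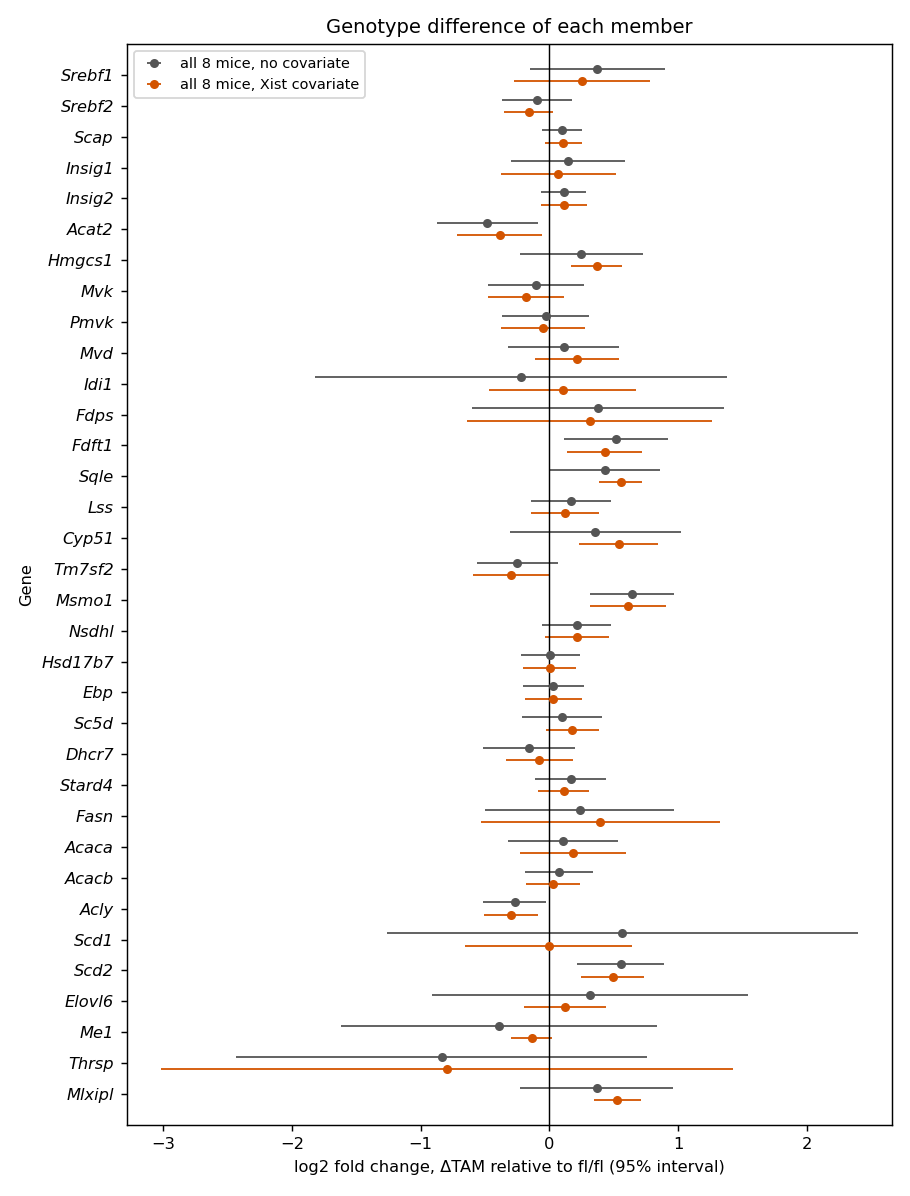
Log2 fold change of each member in c-MafΔTAM relative to control mice with its 95% interval, without a covariate (gray) and with log2 *Xist* as a covariate (orange). The *Xist* covariate narrows the intervals of *Hmgcs1*, *Sqle*, *Cyp51*, *Mlxipl*, *Idi1*, and *Elovl6*, moves *Scd1* to -0.01, and leaves *Fasn* and *Thrsp* wide.

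Of the genes of SREBP control, none passed the test in the fit of all 8 mice, with the covariate, or within the high *Xist* mice (edgeR; 0 also at an unadjusted *P* below 0.05 in the fit of all 8 mice). *Srebf1* was at 48.0, 89.7, 106.8, and 59.3 CPM in c-MafΔTAM mice 1 to 4 and at 59.8, 61.8, 53.8, and 59.5 CPM in control mice 1 to 4, with a log2 fold change of 0.37 ± 0.230 (SE; adjusted *P* = 0.534). The c-MafΔTAM mice were spread to both sides of the narrow control range, with mice 2 and 3 above it and mouse 1 below it. *Insig1*, itself a target of SREBP that retains SCAP, had the same order among the c-MafΔTAM mice with highest and lowest in mice 3 and 1: 19.5, 30.4, 38.6, and 20.1 CPM, against 25.0, 24.9, 24.8, and 23.6 CPM in control mice. Its log2 fold change was 0.14 (adjusted *P* = 0.811). In the high *Xist* mice both genes turned on c-MafΔTAM mouse 4. Without it (2 mice against 2) *Srebf1* was called at a log2 fold change of 0.69 (adjusted *P* = 6.88e-05, against 0.48 and 0.525 with that mouse) and *Insig1* at 0.47 (adjusted *P* = 0.0214, against 0.25 and 0.757). That fit was chosen after seeing the data, and c-MafΔTAM mouse 4 had the lowest value for 6 of the 19 sterol genes. Leaving it out raises the c-MafΔTAM means of those genes, so the calls are no separate support. The fit called 14 of the 34 members higher and 0 lower, compared with 3.61% and 4.13% of all genes tested in it. Beside *Srebf1* and *Insig1*, the genes were *Hmgcs1*, *Mvd*, *Fdft1*, *Sqle*, *Cyp51*, *Msmo1*, *Nsdhl*, *Acaca*, *Fasn*, *Scd1*, *Scd2*, and *Mlxipl*. Over all 8 mice with each mouse left out, the log2 fold change of *Srebf1* ranged from 0.16 (without c-MafΔTAM mouse 3) to 0.54 (without c-MafΔTAM mouse 1), and it was not called in any of these fits.

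*Srebf2* ranged from 93.4 to 146 CPM in c-MafΔTAM and from 118 to 137 CPM in control mice (log2 fold change -0.10, 95% interval -0.37 to 0.18). *Scap*, the sterol-sensing escort, was at 90.3 to 96.6 CPM compared with 84.2 to 91.9 CPM, a log2 fold change of 0.10 with an interval of -0.06 to 0.26. *Insig2* was at 27.2 to 29.2 CPM in c-MafΔTAM and 25.1 to 27.2 CPM in control mice. The *Insig2* groups touched without overlapping, and the difference did not pass the test (log2 fold change 0.11, adjusted *P* = 0.602). c-MafΔTAM mouse 3 had the highest value of all 8 mice for 3 of these 5 genes and c-MafΔTAM mouse 1 the lowest for 3. Of the 19 sterol genes, c-MafΔTAM mouse 3 had the highest value for 5 and c-MafΔTAM mouse 1 and control mouse 4 for 4 each, while c-MafΔTAM mouse 4 and control mouse 1 each had the lowest value for 6.

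In the sterol pathway, *Msmo1*, the methylsterol monooxygenase that removes the C-4 methyl groups, was the member that rose over all 8 mice. It was at 20.2, 26.3, 30.4, and 18.2 CPM in c-MafΔTAM mice 1 to 4 and at 15.5, 15.2, 14.7, and 15.6 CPM in control mice 1 to 4. Every c-MafΔTAM mouse lay above the control mice, whose values were within 1 CPM of each other. The log2 fold change was 0.64 ± 0.149 (SE; 95% interval 0.32 to 0.97; 1.56-fold, adjusted *P* = 0.0493). The adjusted *P* lay just under the threshold and the call was lost without c-MafΔTAM mouse 2 or 3 or without any one of the control mice, where the log2 fold change stayed between 0.50 and 0.66. Over the 8 fits with a mouse left out, the adjusted *P* ranged from 0.0207 to 0.157. With the *Xist* covariate the log2 fold change was 0.61 (adjusted *P* = 0.0149), and within the high *Xist* mice it was 0.70 (adjusted *P* = 0.0722).

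*Sqle*, the squalene epoxidase that makes the first oxygenated intermediate, *Cyp51*, and *Hmgcs1* shared another arrangement of the mice. *Sqle* was at 142, 99.9, 104.9, and 100.5 CPM in c-MafΔTAM mice 1 to 4 and at 62.0, 67.0, 98.5, and 105.3 CPM in control mice 1 to 4. Among the mice with high *Xist*, the 3 c-MafΔTAM mice (99.9 to 104.9 CPM) lay above both control mice, and among the mice with low *Xist* c-MafΔTAM mouse 1 lay above both control mice. The c-MafΔTAM mean was 1.58-fold the control mean in the high *Xist* mice and 1.40-fold in the low *Xist* mice. The log2 fold change was 0.43 over all 8 mice (adjusted *P* = 0.356), 0.55 ± 0.0785 (SE) with the covariate (adjusted *P* = 0.000297), and 0.66 in the high *Xist* mice (adjusted *P* = 0.000209).

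*Cyp51* was at 429, 283, 321, and 243 CPM in c-MafΔTAM mice 1 to 4 and at 150.1, 196, 304, and 347 CPM in control mice 1 to 4. The genotypes overlapped over all 8 mice and were separate within the mice of high *Xist* and within those of low *Xist*, c-MafΔTAM being higher in both. The log2 fold change was 0.36 (adjusted *P* = 0.653) over all 8 mice, 0.54 with the covariate (adjusted *P* = 0.0455), and 0.70 in the high *Xist* mice (adjusted *P* = 0.0247). With each of the 8 mice left out and no covariate, it ranged from 0.18 (without c-MafΔTAM mouse 1 or control mouse 1) to 0.56 (without control mouse 4).

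*Hmgcs1* was at 544, 365, 398, and 308 CPM in c-MafΔTAM mice and at 253, 285, 381, and 442 CPM in control mice, mice 1 to 4 in each. Its order of mice was that of *Cyp51*, with c-MafΔTAM mouse 1 highest and control mouse 1 lowest, and the ratio of its c-MafΔTAM to its control mean was 1.33 in the high *Xist* mice and 1.32 in the low *Xist* mice. For *Hmgcs1* the log2 fold change was 0.25 (adjusted *P* = 0.670) over all 8 mice, 0.37 with the covariate (adjusted *P* = 0.0283), and 0.41 in the high *Xist* mice (adjusted *P* = 0.0491). With each of the 8 mice left out and no covariate, *Hmgcs1* ranged from 0.07 (without c-MafΔTAM mouse 1) to 0.40 (without control mouse 4). Without control mouse 3, the fit with the covariate no longer called *Hmgcs1* (log2 fold change 0.33, adjusted *P* = 0.0641) or *Cyp51* (0.52, adjusted *P* = 0.117). Of the exonic bases of *Hmgcs1*, 12.1% overlap *Gm48342* on the opposite strand, and reads there were not counted.

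**Figure D3:**
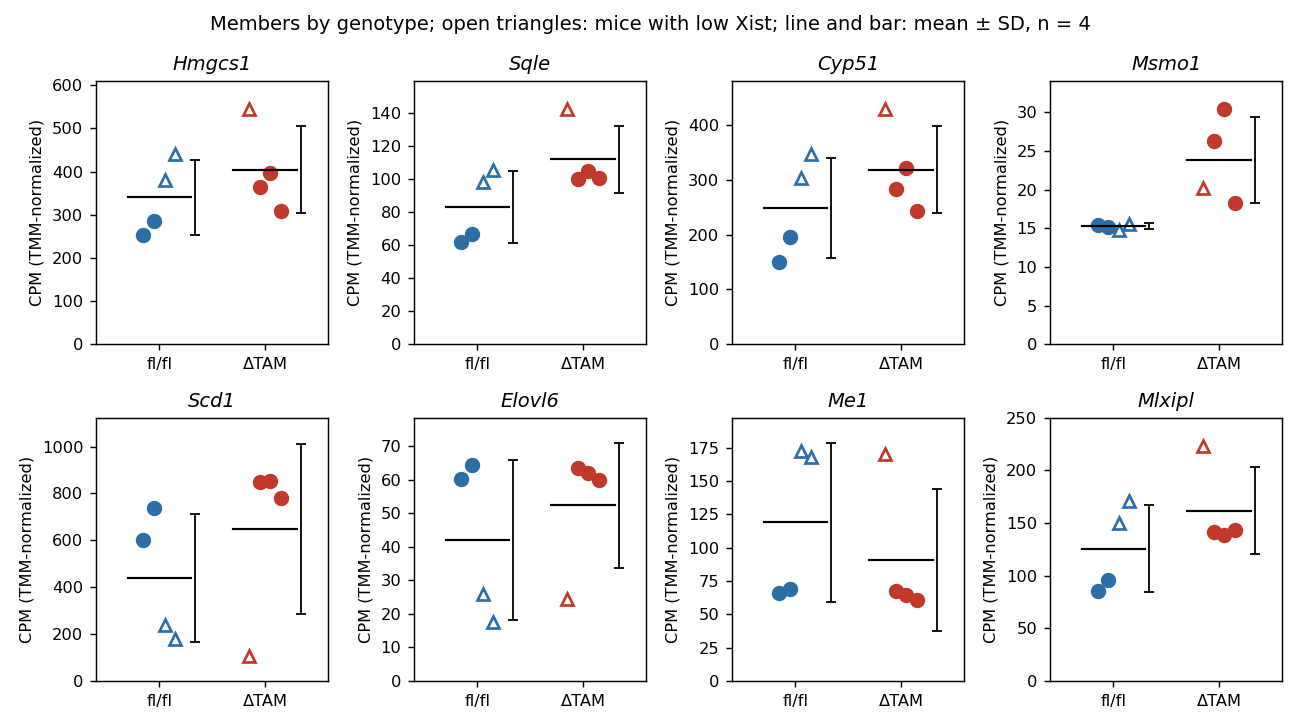
CPM of 8 members in each mouse by genotype, with open triangles for the 3 mice of low *Xist*, lines for the mean, and bars for the SD (n = 4). For *Hmgcs1*, *Sqle*, *Cyp51*, and *Mlxipl* the c-MafΔTAM mice lie above the control mice of the same *Xist* level, *Msmo1* separates by genotype alone, and *Scd1*, *Elovl6*, and *Me1* separate by *Xist*.

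*Fdft1*, the squalene synthase, was at 13.6, 21.2, 23.5, and 15.5 CPM in c-MafΔTAM mice and at 13.8, 15.1, 12.5, and 10.03 CPM in control mice, mice 1 to 4 in each. The groups overlapped through c-MafΔTAM mouse 1, and the log2 fold change of 0.52 had an unadjusted *P* of 0.0168 and an adjusted *P* of 0.225. *Fdft1* was not called with the covariate (0.43, adjusted *P* = 0.0756) or in the high *Xist* mice (0.47, adjusted *P* = 0.162). In fits chosen after seeing the data, it was called with the covariate without control mouse 3 (0.50, adjusted *P* = 0.0471) and in the high *Xist* mice without c-MafΔTAM mouse 4 (0.62, adjusted *P* = 0.00540). Of its exonic bases, 18.8% are shared with *Ctsb* on the opposite strand. *Idi1*, which interconverts the isoprenoid building blocks, was at 8.40, 2.11, 3.66, and 1.62 CPM in c-MafΔTAM mice and at 1.72, 2.26, 6.09, and 8.56 CPM in control mice. The 3 mice with low *Xist* held its 3 highest values, and its sign changed between fits, from -0.22 without to 0.10 with the covariate. Of the 36-base sequences of *Idi1*, 26.5% occur in other genes, mainly *Gm13502*, and 9.22% of its exonic bases overlap *Gm48574* on the opposite strand.

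The member with the largest negative change in the sterol pathway was *Acat2*, the cytosolic acetoacetyl-CoA thiolase (log2 fold change -0.48, unadjusted *P* = 0.0202, adjusted *P* = 0.245). It was at 22.4 to 26.8 CPM in c-MafΔTAM mice and at 25.1, 29.0, 38.6, and 47.7 CPM in control mice 1 to 4, so that its difference lay mainly in control mice 3 and 4, both with low *Xist*. In the high *Xist* mice its log2 fold change was -0.11. Its transcripts share 42.3% of their 36-base sequences with the paralog *Acat3*, and how such reads were assigned is not given in the sources used here. *Tm7sf2*, a sterol C-14 reductase, was at 5.70 to 8.01 CPM in c-MafΔTAM and at 8.07 to 9.12 CPM in control mice. Its groups did not overlap, yet the log2 fold change of -0.25 did not pass the test (adjusted *P* = 0.485).

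The other 11 sterol genes had log2 fold changes between -0.16 and 0.38 and adjusted *P* values between 0.490 and 0.986. The kinases *Mvk* and *Pmvk* of the mevalonate steps were at 6.56 to 10.3 and 6.88 to 9.93 CPM over the 8 mice, and *Mvd*, the decarboxylase after them, was at 22.1 to 39.1 CPM. *Fdps* had only 0.487 to 2.31 CPM and an interval of the log2 fold change from -0.60 to 1.36. *Lss*, which closes the ring of lanosterol, reached 36.4 CPM in c-MafΔTAM mouse 3 and was at 22.3 to 27.6 CPM in the other 7 mice. *Nsdhl* and *Hsd17b7*, which act with *Msmo1* in C-4 demethylation, had log2 fold changes of 0.21 (95% interval -0.06 to 0.48) and 0.01 (-0.22 to 0.24). *Ebp*, the sterol isomerase, had 0.03 (-0.21 to 0.27), *Sc5d*, the C-5 desaturase, 0.10 (-0.21 to 0.41), and *Dhcr7*, the final reductase toward cholesterol, -0.16 (-0.51 to 0.20). For *Stard4*, a carrier of cholesterol between membranes, the log2 fold change was 0.16 (-0.11 to 0.44).

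In fatty acid synthesis, the *Xist* level separated the mice most for *Scd1*, *Elovl6*, and *Me1*. *Scd1* was at 107, 850.1, 853, and 783 CPM in c-MafΔTAM mice 1 to 4 and at 602, 736, 239, and 177 CPM in control mice 1 to 4. The 3 mice with low *Xist* were all below the 5 with high *Xist*, in either genotype. Its log2 fold change was 0.56 ± 0.758 (SE) without a covariate, -0.01 with it, and 0.31 within the high *Xist* mice (adjusted *P* = 0.807, 0.993, and 0.120). Without c-MafΔTAM mouse 4, a fit chosen after seeing the data, the high *Xist* mice gave 0.35 for *Scd1*, which was called (adjusted *P* = 0.0274).

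*Elovl6*, which lengthens palmitate, was at 24.3, 63.4, 61.8, and 59.8 CPM in c-MafΔTAM mice and at 60.1, 64.4, 25.8, and 17.7 CPM in control mice, mice 1 to 4 in each. Within the high *Xist* mice its values lay between 59.8 and 64.4 CPM, with a log2 fold change of -0.02 (95% interval -0.20 to 0.16). *Me1*, the cytosolic malic enzyme that supplies NADPH, ran the other way, at 170.1, 67.7, 64.2, and 60.4 CPM in c-MafΔTAM mice and at 65.9, 69.2, 173, and 168 CPM in control mice. The low *Xist* mice were 2.52-fold above the high *Xist* mice in control and 2.65-fold in c-MafΔTAM. Of its 36-base sequences, 34.5% occur in other genes, mainly *Gm7049*.

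Over the 34 members, 9 (26.5%) did not overlap between the 3 mice with low and the 5 with high *Xist*, compared with 14.3% of all genes tested. *Idi1*, *Sc5d*, *Dhcr7*, *Me1*, and *Mlxipl* were higher and *Fdft1*, *Stard4*, *Scd1*, and *Elovl6* were lower in the mice with low *Xist*. These are sets of mice taken from their *Xist* counts and not groups of the study, and no test was run between them.

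**Figure D4:**
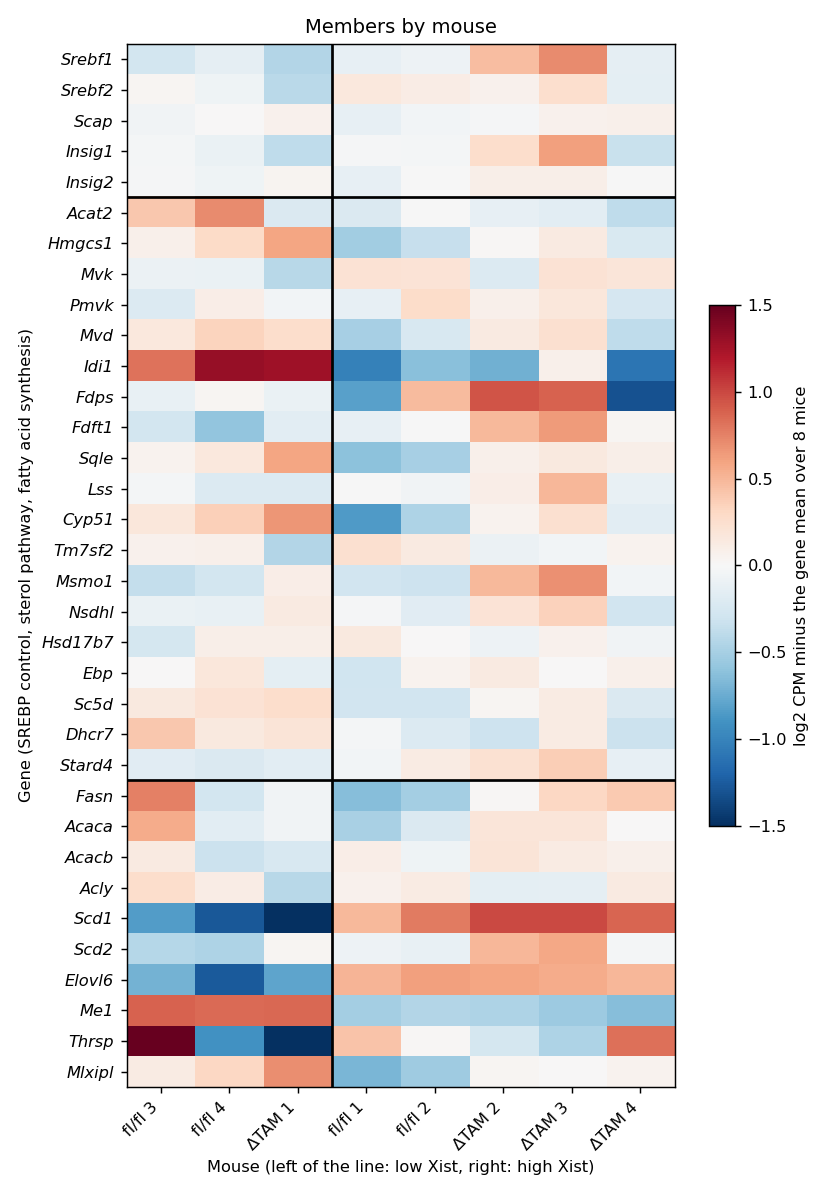
Log2 CPM of the 34 members minus each gene's mean over the 8 mice, with the 3 mice of low *Xist* to the left of the vertical line and the genes split into SREBP control, sterol pathway, and fatty acid synthesis. *Idi1*, *Me1*, *Scd1*, and *Elovl6* change across the line, and c-MafΔTAM mice 2 and 3 are high for *Srebf1*, *Insig1*, *Fdft1*, *Msmo1*, and *Scd2*.

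*Mlxipl* (ChREBP) followed the arrangement of *Sqle*, with 223, 142, 139, and 144 CPM in c-MafΔTAM mice 1 to 4 and 85.7, 95.9, 150.2, and 171 CPM in control mice 1 to 4. The c-MafΔTAM mice exceeded the control mice 1.56-fold among mice with high *Xist* and 1.39-fold among those with low *Xist*, without overlap in either. Its log2 fold change was 0.37 (adjusted *P* = 0.594) over all 8 mice, 0.53 ± 0.0866 (SE) with the covariate (adjusted *P* = 0.00107), and 0.64 in the high *Xist* mice (adjusted *P* = 0.000294). With each of the 8 mice left out and no covariate, *Mlxipl* ranged from 0.17 (without c-MafΔTAM mouse 1) to 0.55 (without control mouse 4), and neither it, *Hmgcs1*, nor *Cyp51* was called in those fits. *Scd2*, a second stearoyl-CoA desaturase, was at 143, 198, 209.9, and 137 CPM in c-MafΔTAM mice and at 132, 129, 104, and 102 CPM in control mice. All c-MafΔTAM values were above all control values, by a log2 fold change of 0.55 ± 0.154 (SE; adjusted *P* = 0.107), which passed with the covariate (0.49, adjusted *P* = 0.0209) but not within the high *Xist* mice (0.47, adjusted *P* = 0.273).

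*Fasn*, the fatty acid synthase, was at 222, 234, 286, and 304 CPM in c-MafΔTAM mice 1 to 4 and at 148, 162, 389.7, and 189.9 CPM in control mice 1 to 4. The c-MafΔTAM mice lay above 3 of the 4 control mice, and control mouse 3 lay above all of them. Its log2 fold change was 0.23 (adjusted *P* = 0.807) over all 8 mice, 0.39 with the covariate (adjusted *P* = 0.634), and 0.82 ± 0.110 (SE) within the high *Xist* mice (adjusted *P* = 0.000489). With the covariate and without control mouse 3, a fit chosen after seeing the data, *Fasn* passed the test (log2 fold change 0.65, adjusted *P* = 0.0190). Leaving out the only control mouse above the c-MafΔTAM mice raises the difference, so that call is no separate support.

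Control mouse 3 had the highest value for 5 of the 10 fatty acid synthesis genes, and it also had the highest sum of adipocyte markers. The 10 adipocyte markers summed to 194 CPM in that mouse, 56.4 CPM in c-MafΔTAM mouse 4, and 18.8 to 25.4 CPM in the other 6 mice. Of the markers, 2 (*Plin4* and *Lipe*) passed the filter on low counts, and *Adipoq* and *Plin1* were at 8.73 and 12.6 CPM in control mouse 3, at 2.06 and 2.71 CPM in c-MafΔTAM mouse 4, and at most 0.356 CPM in the others. The difference in summed markers between genotypes did not pass the test (exact permutation test over 70 assignments, two-sided *P* = 0.457, smallest possible 0.0286). *Thrsp* (Spot 14), a lipogenic protein abundant in fat, was highest in the same 2 mice, at 12.9 and 6.23 CPM compared with 1.22 to 4.71 CPM in the other 6. *Acaca* was at 24.9 CPM in control mouse 3 and at 12.1 to 19.2 CPM in the others. The part of adipocytes in the *Fasn*, *Acaca*, and *Thrsp* values was not tested. The high *Xist* mice do not include control mouse 3. There, without c-MafΔTAM mouse 4 as well (2 mice against 2, a fit chosen after seeing the data), the log2 fold change was 0.74 for *Fasn* (adjusted *P* = 4.39e-05), 0.52 for *Acaca* (adjusted *P* = 0.0316, against 0.47 and 0.0837 with that mouse), and -0.59 for *Thrsp* (adjusted *P* = 0.237, against -0.08 and 0.958 with it). Markers of the adrenal cortex, a steroid-making tissue next to the kidney, summed to only 7.14 to 11.5 CPM in all mice.

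**Figure D5:**
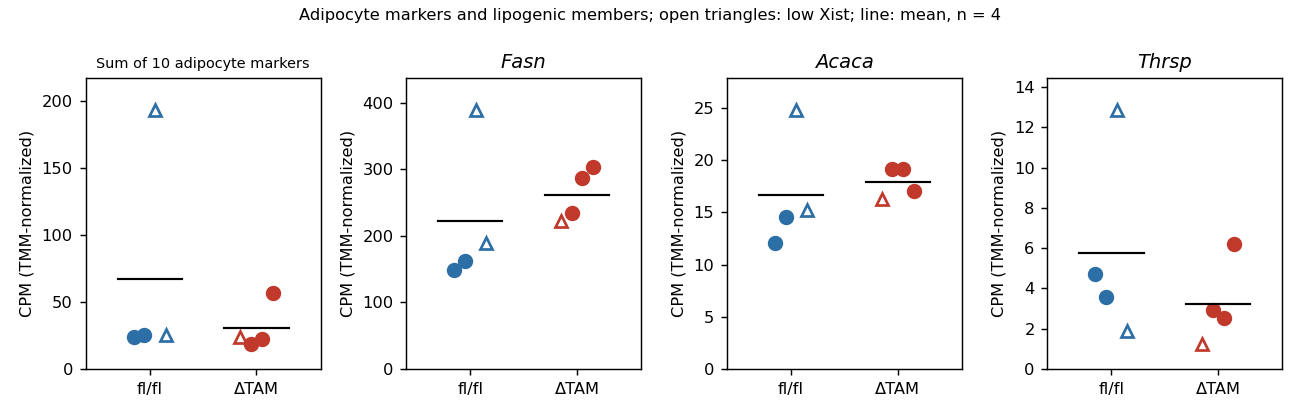
Summed CPM of the 10 adipocyte markers and CPM of *Fasn*, *Acaca*, and *Thrsp* in each mouse by genotype, with open triangles for low *Xist* and lines for the mean of 4 mice. One control mouse (mouse 3) is highest in all 4 panels, with 194 CPM of adipocyte markers and 389.7 CPM of *Fasn*.

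*Acly* was the fatty acid gene with a negative change at an unadjusted *P* below 0.05 (log2 fold change -0.27, unadjusted *P* = 0.0318, adjusted *P* = 0.298). It was at 144, 174, 176, and 211 CPM in c-MafΔTAM mice and at 202, 210.2, 231, and 207 CPM in control mice, so that only c-MafΔTAM mouse 4 fell within the control range. *Acacb*, the mitochondrial acetyl-CoA carboxylase that restrains fatty acid oxidation, was at 70.3 to 100.8 CPM over all mice, with a log2 fold change of 0.07 (95% interval -0.19 to 0.33).

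Other genes of these pathways were examined in 7 lists, of which 88 of 92 genes passed the filter. Over all 8 mice, 3 rose and 3 fell, compared with 0.586% and 1.58% of all genes tested, with a median log2 fold change of -0.02. With the *Xist* covariate 7 rose and 7 fell, compared with 2.59% and 4.23%. *Nus1*, a subunit of the cis-prenyltransferase of dolichol synthesis, was at 408 ± 42.8 CPM (SD, n = 4) in c-MafΔTAM and 271 ± 23.0 CPM in control mice (log2 fold change 0.59, adjusted *P* = 0.0101). *Mylip*, the ligase that degrades lipoprotein receptors, was at 71.6 ± 6.47 compared with 48.7 ± 9.59 CPM (0.56, adjusted *P* = 0.0449), and *Elovl2*, an elongase of polyunsaturated fatty acids, at 99.8 ± 14.7 compared with 67.3 ± 9.77 CPM (0.57, adjusted *P* = 0.0404).

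The 3 falls over all 8 mice were each larger than the change of *Msmo1*, the 1 member called in that fit. *Idh1*, the cytosolic isocitrate dehydrogenase that makes NADPH, was at 81.4, 117, 127, and 86.8 CPM in c-MafΔTAM mice 1 to 4 and at 301, 317, 294, and 329.9 CPM in control mice 1 to 4 (log2 fold change -1.59 ± 0.139 (SE), adjusted *P* = 9.49e-05). *Gpat3*, an acyltransferase of glycerolipid synthesis, was at 1.93, 3.18, 3.44, and 2.17 CPM compared with 18.7, 13.5, 8.98, and 9.03 CPM (-2.23, adjusted *P* = 0.00167). *Ppara*, the nuclear receptor that drives fatty acid oxidation, was at 63.4 ± 8.13 compared with 112 ± 10.5 CPM (-0.83, adjusted *P* = 0.00147). In all 3 genes the 4 c-MafΔTAM mice lay below the 4 control mice, among mice with low and with high *Xist* alike.

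By list, the isoprenoid branches held *Nus1* as the 1 gene called of 9, which was also its gene of highest level per length, at 55.6 CPM per kb in control mice. In sterol uptake, storage, and efflux, 1 of 16 rose (*Mylip*) and 0 fell, and *Lipa*, the lysosomal acid lipase, had the highest level, at 27.7 CPM per kb. In fatty acid activation, elongation, and desaturation, 1 of 15 rose (*Elovl2*), and the median log2 fold change was 0.24 (0.09 with the *Xist* covariate and 0.31 in the high *Xist* mice). *Fads2*, a desaturase with the highest level there (38.5 CPM per kb), had a log2 fold change of 0.24 over all 8 mice. Among genes of triglyceride synthesis and lipid droplets, 1 of 14 fell (*Gpat3*), and the highest level was that of *Agpat3* (49.8 CPM per kb). Their median was -0.20 over all 8 mice, -0.18 with the *Xist* covariate, and -0.04 in the high *Xist* mice. Of the genes of acetyl-CoA and NADPH supply, 1 of 9 fell (*Idh1*, also the highest at 112 CPM per kb). Of the lipogenic regulators, 1 of 15 fell (*Ppara*), and *Prkaa2*, a catalytic subunit of AMPK, was highest at 30.3 CPM per kb. In SREBP processing and sterol-driven degradation, 0 of 10 were called (edgeR; 0 higher and 1 lower at an unadjusted *P* below 0.05).

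With the *Xist* covariate the further genes that passed were *Soat1*, which esterifies cholesterol (log2 fold change 0.39), *Acss2*, which makes acetyl-CoA from acetate (0.39), *Elovl5* (0.33), and *Aco1* (0.31) among those higher. *Lipa* (-0.31), *Erlin1* (-0.33), *Pgd* (-0.28), and *Mlycd*, the malonyl-CoA decarboxylase (-0.34), were lower.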

How the data were processed

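Whole kidneys of 4 c-MafΔTAM and 4 c-Maf fl/fl mice were analysed by RNA-Seq, and each mouse was 1 replicate. The labels name the tissue as kidney, while their extraction text names liver. Kidney markers were present in all mice, and the hepatocyte markers are given with the results. The deposited counts are unnormalized whole numbers of reads per gene, made by the authors on Ensembl 102 exons of GRCm38 by featureCounts 2.0.1, counting each read of a pair separately, ignoring strand, and leaving out reads on exons of more than 1 gene. The study's methods name the CLC Genomics Workbench for mapping reads to the mouse genome, and whether those alignments gave the deposited counts is not given in the sources used here. The 34 members and the other gene lists were chosen with earlier results of these data known.

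Genes were kept by filterByExpr, scaled by TMM, and compared with edgeR's robust quasi-likelihood test (edgeR 4.0.16, R 4.3.3) at a Benjamini-Hochberg adjusted *P* under 0.05 over all genes tested. The SE was taken as the size of a log2 fold change over the root of its F value. The alternatives were DESeq2 1.42.0, limma 3.58.1 on quantile-normalized values, edgeR's exact test, RLE and upper-quartile factors, other filters and thresholds, no mitochondrial or ribosomal RNA genes, a replicate block, log2 *Xist* as a covariate, the high *Xist* mice alone, and each mouse left out. The fits with *Xist* as a 2-level covariate, with the *Xist* covariate but no c-Maf fl/fl mouse 3, and of high *Xist* mice without c-MafΔTAM mouse 4 were chosen after seeing the data. Named genes were *Maf*, every member, all genes of a pathway list past the threshold with the gene of highest level per length, and markers past the threshold, except 1 gene not reported here. Promoter sequences are from RefSeq. The scripts were tested on simulated data. Columns of per-sample values left unused numbered 0. Figures were drawn with matplotlib 3.10.9.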

Additional observations from a re-analysis of the deposited data

Results flagged for a closer look

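Of 70 sets of 4 values (each of the 34 members and *Maf*, in each genotype), 6 had a mouse far from the other 3 by Dixon's criterion, and chance flags about 1 in 20 such sets, or 3.5 of 70. In c-MafΔTAM mouse 1, the c-MafΔTAM mouse with low *Xist*, *Sqle* was at 142 CPM (99.9 to 104.9 in the other 3), *Scd1* at 107 CPM (783 to 853), *Elovl6* at 24.3 CPM (59.8 to 63.4), *Me1* at 170.1 CPM (60.4 to 67.7), and *Mlxipl* at 223 CPM (139 to 144). In control mice 3 and 4, which also had low *Xist*, *Scd1* and *Elovl6* were likewise lower and *Sqle*, *Me1*, and *Mlxipl* likewise higher than in control mice 1 and 2. *Insig1* had 23.6 CPM in control mouse 4 compared with 24.8 to 25.0 CPM in control mice 1 to 3, a small difference in a narrow range.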

How the results depend on the processing

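The single call over all 8 mice, *Msmo1* higher, rests on an adjusted *P* near the threshold and on few mice, and its log2 fold change was positive in all 22 alternatives. The number of members higher was 0 with quantile normalization, with at least 10 counts in every mouse, at an adjusted *P* under 0.01, and with the replicate block. It was 2 with DESeq2, 6 with the *Xist* covariate (6 also as high or low, and 6 without control mouse 3), 5 in high *Xist* mice, and 14 when c-MafΔTAM mouse 4 was also left out, a comparison of 2 against 2 mice that called 741 genes higher and 847 lower. It was 0 to 1 with each mouse left out. Genes higher in the pathway lists numbered 5 with upper-quartile factors, DESeq2, or an adjusted *P* under 0.1, 0 with the replicate block or under 0.01, 7 with either *Xist* covariate (9 without control mouse 3), 8 in high *Xist* mice (14 without c-MafΔTAM mouse 4), and 1 to 3 with each mouse left out. Genes lower there numbered 7 with either *Xist* covariate (5 without control mouse 3) and 5 in high *Xist* mice (7 without c-MafΔTAM mouse 4). No member was called lower in any alternative. Same-numbered mice had correlations of -0.52, 0.25, -0.19, and -0.48 in their deviations from the genotype means. Mice 1, 3, and 4 differed in *Xist* level between the genotypes, so the correlations cannot tell whether the replicate number pairs the mice. The replicate block left 18 genes higher and 111 lower over all genes.

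Signs of log2 fold changes that were not called reversed as follows. With the *Xist* covariate *Idi1* was 0.10 and *Scd1* -0.007287, with high or low *Xist* *Idi1* was 0.26, *Hsd17b7* -0.002352, and *Scd1* -0.11, and without control mouse 3 *Idi1* was 0.001586 and *Hsd17b7* -0.07008. In high *Xist* mice *Idi1* was 0.30, *Hsd17b7* -0.10, and *Elovl6* -0.01594, and without c-MafΔTAM mouse 4 *Idi1* was 0.52, *Hsd17b7* -0.08126, *Srebf2* 0.02585, *Pmvk* 0.02712, and *Dhcr7* 0.03626. *Pmvk* was 0.01533 with upper-quartile factors. With each mouse left out, the ranges that crossed 0 were -0.21 to 0.008402 for *Srebf2*, -0.07516 to 0.27 for *Insig1*, -0.20 to 0.007442 for *Mvk*, -0.10 to 0.06936 for *Pmvk*, -0.01845 to 0.25 for *Mvd*, -0.91 to 0.25 for *Idi1*, -0.06967 to 0.05932 for *Hsd17b7*, -0.0569 to 0.10 for *Ebp*, -0.02494 to 0.36 for *Acaca*, and -0.009862 to 0.16 for *Acacb*. The cause was not tested. *Fdps*, at 0.487 to 2.31 CPM, had an interval of -0.60 to 1.36, and a change within it was not detectable with these mice. The parts of depth and of the spread between mice in that interval were not tested.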
